A study of Mus musculus with 9 samples.

Results

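The flat cell layer of the newborn mouse growth plate was compared with the round cell layer that lies above it, gene by gene, with attention to genes and functions outside the usual chondrocyte marker lists. The comparison used 6 of the 9 arrays of the series, 3 of the flat and 3 of the round layer, and the 3 arrays of the hypertrophic layer entered the fit only to share its estimate of spread. All samples came from wild-type Black Swiss mice at birth (age 0 days), with no treatment named. The tissue was the growth plate at the proximal end of the tibia. Each layer was cut by hand from cryosections of unfixed, frozen hind limbs, and the tibiae of a single litter were pooled into a sample. The labels thus give 3 litters per layer, no sorted cells and no step that separates cartilage cells from neighbouring tissue. RNA was measured on Affymetrix arrays as MAS5 signal, a background-corrected brightness per probe set, and log2 differences below are flat minus round on the log2(signal + 26) scale with their standard error (SE) from a fit with litter as a block, n = 3 litters. Signals are listed in the order of litters 1, 2 and 3, and they compare arrays for a gene, not genes with each other.

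A long bone grows because cartilage cells of its growth plate divide, stack into columns and then enlarge. Round cells lie nearest the joint and divide slowly, flat cells below them form the columns, and the hypertrophic cells at the far end enlarge before bone replaces the cartilage. Secreted signals pass between these layers, among them parathyroid hormone-related protein from the joint end and Indian hedgehog from cells about to enlarge. Most descriptions of the layers rest on matrix, hedgehog and bone genes. Most of the genes below are receptors, growth factor ligands, transcription factors, enzymes and transporters outside those groups.

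The layer labels and the purity of the samples were checked first. Prg4, the joint surface lubricant, had signals of 14144, 13112 and 18770 in the round layer and 707, 191 and 256 in the flat layer. Ucma, a protein of upper-zone cartilage, was at 1840, 1958 and 2157 against 593, 601 and 586. Col10a1, the collagen of hypertrophic cells, was at 20.0, 156 and 240 in the round layer and 470, 931 and 590 in the flat layer, far below its hypertrophic mean of 11857 ± 918 (SD, n = 3). These genes separated the layers without overlap, but none of them is a marker of flat cells. Of 37 tested columnar and cartilage matrix markers 5 rose and 16 fell in the flat layer (56.8% called, against 17.0% of all tested genes). The falls included Col2a1, Acan and Sox9, and the rises Matn1 and Pcp4. Of 20 prehypertrophic and hypertrophic markers 13 rose and 3 fell (80.0% called). Skeletal muscle markers rose in 20 of 20, with a median log2 difference of 1.46, and their summed signal was 160316 to 263940 on the round and 382752 to 637946 on the flat arrays. A muscle score, the mean of those 20 markers relative to all 9 arrays, was -0.46, -1.08 and -0.18 in the round and 0.44, 0.44 and 1.56 in the flat layer. Every flat array lay above every round array, so a fit with this score as a covariate cannot tell layer from muscle content. Summed osteoclast markers (5 of 12 rose and 1 fell) were 7150 to 7894 in the round and 8949 to 13773 in the flat layer. The neutrophil marker sums (4 of 5 rose) were 2432 to 3395 and 5069 to 12164, and the endothelial sums (4 of 15 fell) were 22738 to 24705 and 17861 to 20637. The round array of litter 1 had the highest 3'/5' signal ratios of the control probe sets, 4.25 for actin (1.45 to 2.06 elsewhere) and 2.59 for Gapdh (0.922 to 1.28 elsewhere). In bulk samples of this kind, fewer cells of a type and less RNA per cell cannot be told apart, and the part of other tissues in the differences below was not tested beyond the values given beside them.

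Of 11313 genes tested with limma, 1926 (17.0%) differed between the layers at an adjusted p under 0.05, 949 (8.39%) higher in the flat layer and 977 (8.64%) lower. A difference of at least 2-fold was reached by 425 higher genes (3.76%) and 307 lower genes (2.71%). When each array was centred on its median, which moved the median difference of all tested genes by -0.059, the split became 737 higher and 1118 lower. Signals of the 3 flat arrays lay above all 3 round signals for 1345 genes (11.9%) and below all of them for 1503 (13.3%). Of the called genes 114 stood in the usual cartilage and bone lists or in the lists of other cell types. These lists are short, so the count does not show that their part is small. In the 4 usual lists 56.8% to 80.0% of the tested members were called, against 17.0% of all tested genes. Among the lists of other cell types, the called share ran from 2 of 15 macrophage markers to 20 of 20 skeletal muscle markers. The remaining 1812 called genes comprised 886 higher and 926 lower genes, and most of what follows concerns them. They still include muscle genes that the lists do not name, such as Trdn, Casq2 and Smyd1. Counts were lower without the replicate block (405 higher, 530 lower), with the muscle score as a covariate (198 and 194), and without the litter 2 round array (625 and 600).

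**Figure D1:**
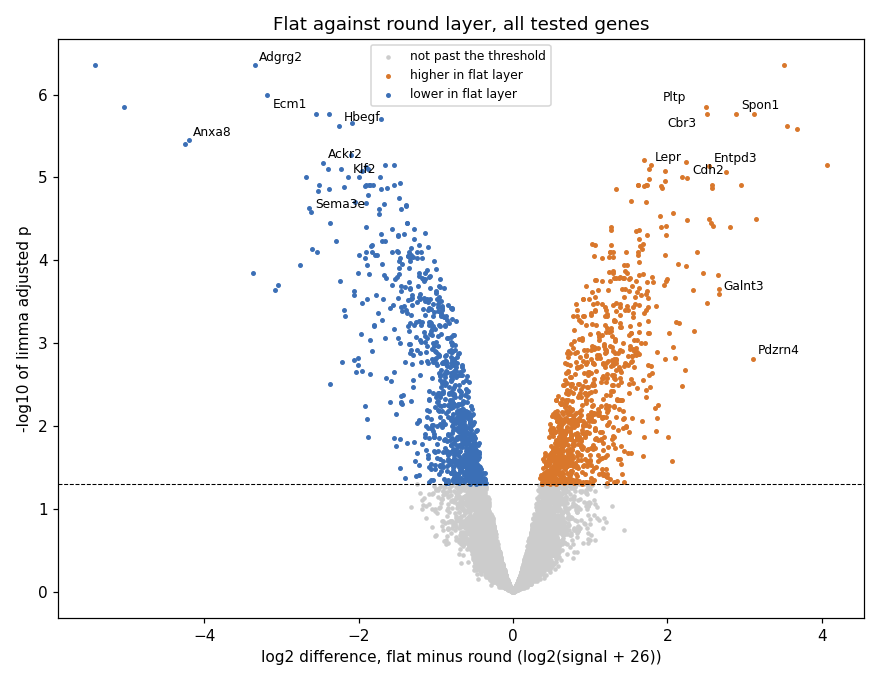
Each point is 1 of the 11313 tested genes, plotted by its log2 difference (flat minus round, horizontal) and by -log10 of the limma adjusted p (vertical). Orange points are the 949 genes higher and blue points the 977 genes lower in the flat layer, grey points did not pass, and the dashed line is the threshold of 0.05. Names mark genes described in the text.

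The largest falls outside the marker lists were cell surface proteins, secreted proteins and signalling enzymes. Anxa8, an annexin that binds phospholipids in the presence of calcium, had round signals of 3884, 2864 and 3306 and flat signals of 404, 124 and 67.7, a log2 difference of -4.20 ± 0.29. The adhesion G protein-coupled receptor Adgrg2 was nearly constant within each layer, at 2869, 2847 and 3240 in the round and 266, 266 and 276 in the flat layer. Its difference of -3.35 ± 0.16, or 10.2-fold, had the lowest limma adjusted p of the 40 genes picked for size (4.42e-07). The hypertrophic mean of Adgrg2 was 169 ± 32.0, so the flat layer lay between the other two layers.

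Receptors among these falls had separate ligands. Lgr6, a receptor for R-spondins, had round signals of 1091, 1171 and 1108 and flat signals of 94.2, 226 and 165 (-2.68 ± 0.22), and its hypertrophic mean was 471 ± 15.7. Ackr2, a decoy receptor that takes up inflammatory chemokines without signalling, stood at 1349, 1414 and 1522 against 226, 269 and 223 (-2.46 ± 0.18). Casr, the calcium-sensing receptor, was at 588, 379 and 558 against 18.9, 175 and 89.8 (-2.37 ± 0.45). In all 3 receptors the lowest round array was above the highest flat array. Casr was the least precise of them.

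Among secreted or matrix proteins, Sema3e, a guidance protein that binds plexin D1, had signals of 848, 1008 and 773 in the round and 150, 133 and 85.3 in the flat layer (-2.62 ± 0.25). Ecm1, a matrix protein known to bind perlecan, was at 3092, 2964 and 2666 against 612, 475 and 359 (-2.56 ± 0.15). Pappa2, a protease that frees insulin-like growth factors from their binding proteins, was at 1567, 2112 and 1867 against 409, 408 and 221 (-2.37 ± 0.23). No round signal of these 3 genes overlapped a flat one. Tgfbi, an integrin-binding matrix protein, was not among the 20 largest falls but had one of the 5 highest moderated t values. Its signals were 32033, 23415 and 20152 against 9353, 7479 and 6184 (-1.71 ± 0.11).

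Enzymes and regulators completed the list. Enpep, the aminopeptidase that cleaves angiotensin II, fell by 2.39 ± 0.19 on the log2 scale and the sulfotransferase Chst5 fell by 2.53 ± 0.23. Ngef fell by 3.08 ± 0.40. Spsb4, a substrate adaptor of ubiquitin ligases, fell by 2.52 ± 0.22. The kinases Pkn3 and Stk38l fell by 2.25 ± 0.28 and 2.23 ± 0.17, and Creb5, a CREB family transcription factor, fell by 2.39 ± 0.21. Ndufa4l2, a mitochondrial protein induced in hypoxia, was at 5009, 6003 and 5095 against 1227, 1550 and 1006 (-2.08 ± 0.14). Scrg1, a small secreted protein of cartilage, had a difference of -2.29 ± 0.24. Zfp365 (-2.76 ± 0.32) and the predicted gene Gm17455 (-3.37 ± 0.40) were also among the 20.

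The largest rises were led by secreted proteins, glycan enzymes and adhesion proteins. Spon1, or F-spondin, a secreted matrix protein, had round signals of 332, 349 and 312 and flat signals of 3039, 3129 and 1903, a log2 difference of 2.89 ± 0.18 or 7.44-fold. Pltp, a plasma phospholipid transfer protein, was at 1186, 1242 and 1040 against 8285, 8046 and 4364 (2.50 ± 0.15), and its hypertrophic mean was higher again at 16600 ± 2337. Cdh2, or N-cadherin, was at 462, 579 and 655 against 2989, 3464 and 2075 (2.26 ± 0.19). In each of these genes the litter 3 flat array was the lowest of the flat arrays, yet it remained above all round arrays.

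Receptors and ligands also rose. Tnfrsf19, a receptor of the tumour necrosis factor family, had signals of 250, 327 and 336 in the round and 2204, 2351 and 1392 in the flat layer (2.58 ± 0.22). Lepr, the leptin receptor, was at 416, 486 and 336 against 1701, 1628 and 1139 (1.78 ± 0.14). Wnt10a, a Wnt ligand, was close to the pseudocount in the round layer, at 20.5, 72.5 and 10.7 against 247, 487 and 281 in the flat layer (2.67 ± 0.34). The fold of a gene this low is understated by the scale. Gal, the neuropeptide galanin, was likewise at 37.4, 22.1 and 90.8 against 459, 543 and 299 (2.66 ± 0.32), with a hypertrophic mean of 1035 ± 71.1.

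Several rises were of enzymes. Cbr3, a carbonyl reductase, was at 406, 342 and 290 against 2174, 2390 and 1735 (2.51 ± 0.16). Entpd3, an ectoenzyme that breaks down extracellular ATP, was at 164, 158 and 83.1 against 848, 1136 and 715 (2.54 ± 0.20). The sulfotransferases Hs3st6, which acts on heparan sulfate, and Chst13, which acts on chondroitin, rose by 2.51 ± 0.34 and 2.33 ± 0.30. Qpct, which cyclises N-terminal glutamine of secreted peptides, rose by 2.46 ± 0.30. Gpc1, a heparan sulfate proteoglycan of the cell surface, had a smaller but precise difference of 1.70 ± 0.13, with 2542, 2059 and 2039 against 8138, 8062 and 5739.

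Other rises concerned intracellular proteins. Pdzrn4, a protein with PDZ and RING domains, had the largest difference (3.11 ± 0.53) and the widest spread, with flat signals of 1157, 691 and 203 against 10.7, 62.0 and 67.3. Serpinb6b, an intracellular protease inhibitor, rose by 2.76 ± 0.22, Crabp1, which binds retinoic acid in the cytoplasm, by 2.26 ± 0.22, and the liprin Ppfibp2 by 2.25 ± 0.26. Krt5, a keratin best known from basal epithelium, was at 196, 96.0 and 132 against 840, 1096 and 608 (2.39 ± 0.27). Miat, a long non-coding RNA, rose by 2.19 ± 0.18. Trdn, the calcium release channel partner triadin of muscle, had a difference of 2.23 ± 0.40 that became -0.75 with the muscle score as a covariate.

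All 40 of these largest changes showed no overlap between layers, against 11.9% and 13.3% of all tested genes in the 2 directions in turn, but they were picked for size and the count supports nothing. Their adjusted p lay between 4.42e-07 and 0.00329. All 40 remained past the threshold with any 1 round or flat array left out and without the replicate block. With both the litter 1 round and the litter 3 flat array left out Casr did not pass (adjusted p = 0.0543). With the muscle score as a covariate 12 of the 20 rises and 11 of the 20 falls remained past it. Under that covariate Pdzrn4 moved from 3.11 to 6.5 and Trdn from 2.23 to -0.75. Because the score also separates the layers, a call kept or lost in that fit does not tell a layer difference from muscle content. Why the other calls were lost was not tested.

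**Figure D2:**
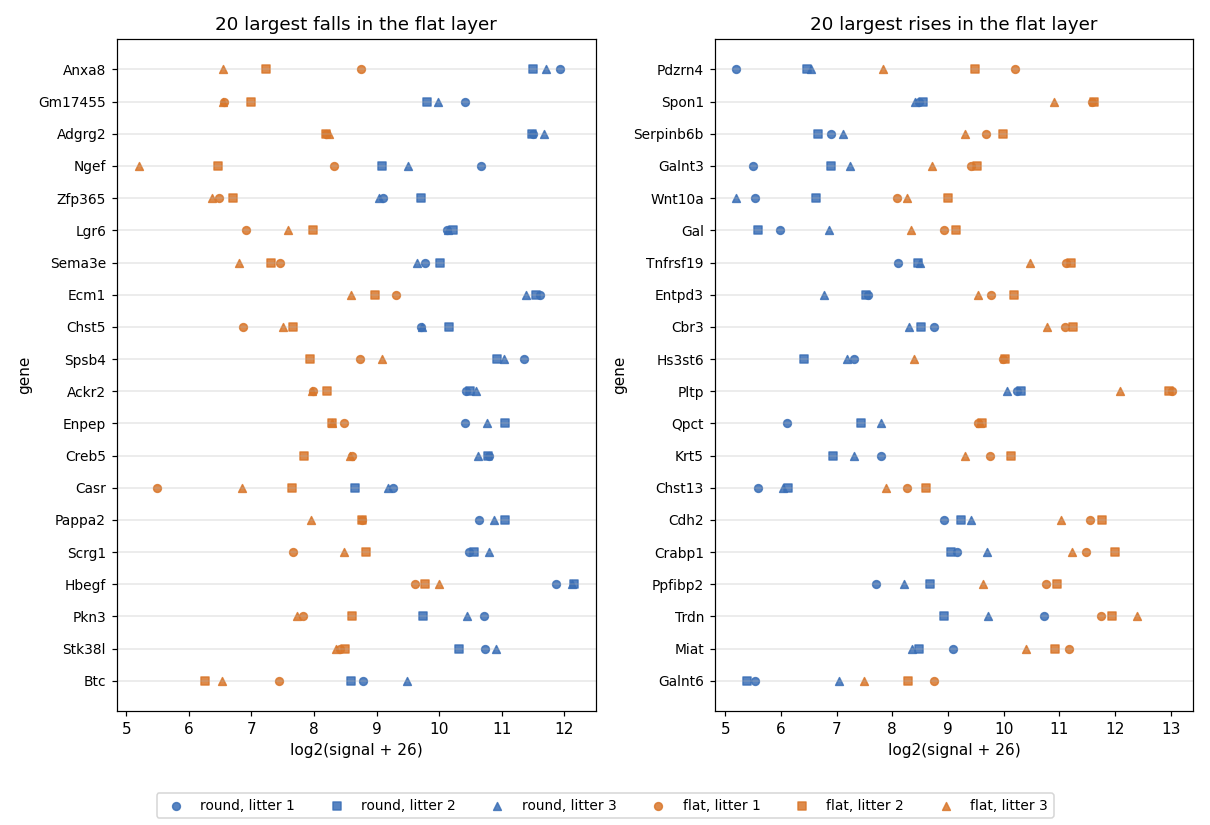
Log2(signal + 26) of the 20 largest falls (left) and the 20 largest rises (right) on the 3 round (blue) and 3 flat (orange) arrays, with the marker shape giving the litter. In every row the 3 blue and the 3 orange markers do not overlap, and the widest spread within a layer is seen for Ngef and Pdzrn4.

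Genes were also grouped into 55 lists by function. The lists name 2084 genes of the array, of which 1667 were tested and 422 (25.3%) differed between the layers, against 17.0% of all tested genes. The lists were chosen with earlier results of these data known, so the higher share supports nothing. More members rose than fell in 24 lists, more fell than rose in 28, and the counts were equal in 3. The lists differ in size, and each list's counts should be read against the 8.39% and 8.64% of all tested genes that rose and fell. The median log2 difference of all tested genes was -0.01. With the muscle score as a covariate 84 of the 338 genes picked by rule for naming remained past the threshold and 22 changed sign. A gene given below without that value is thus not thereby one that held. For the genes below too, a call kept in that fit does not tell a layer difference from muscle content.

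**Figure D3:**
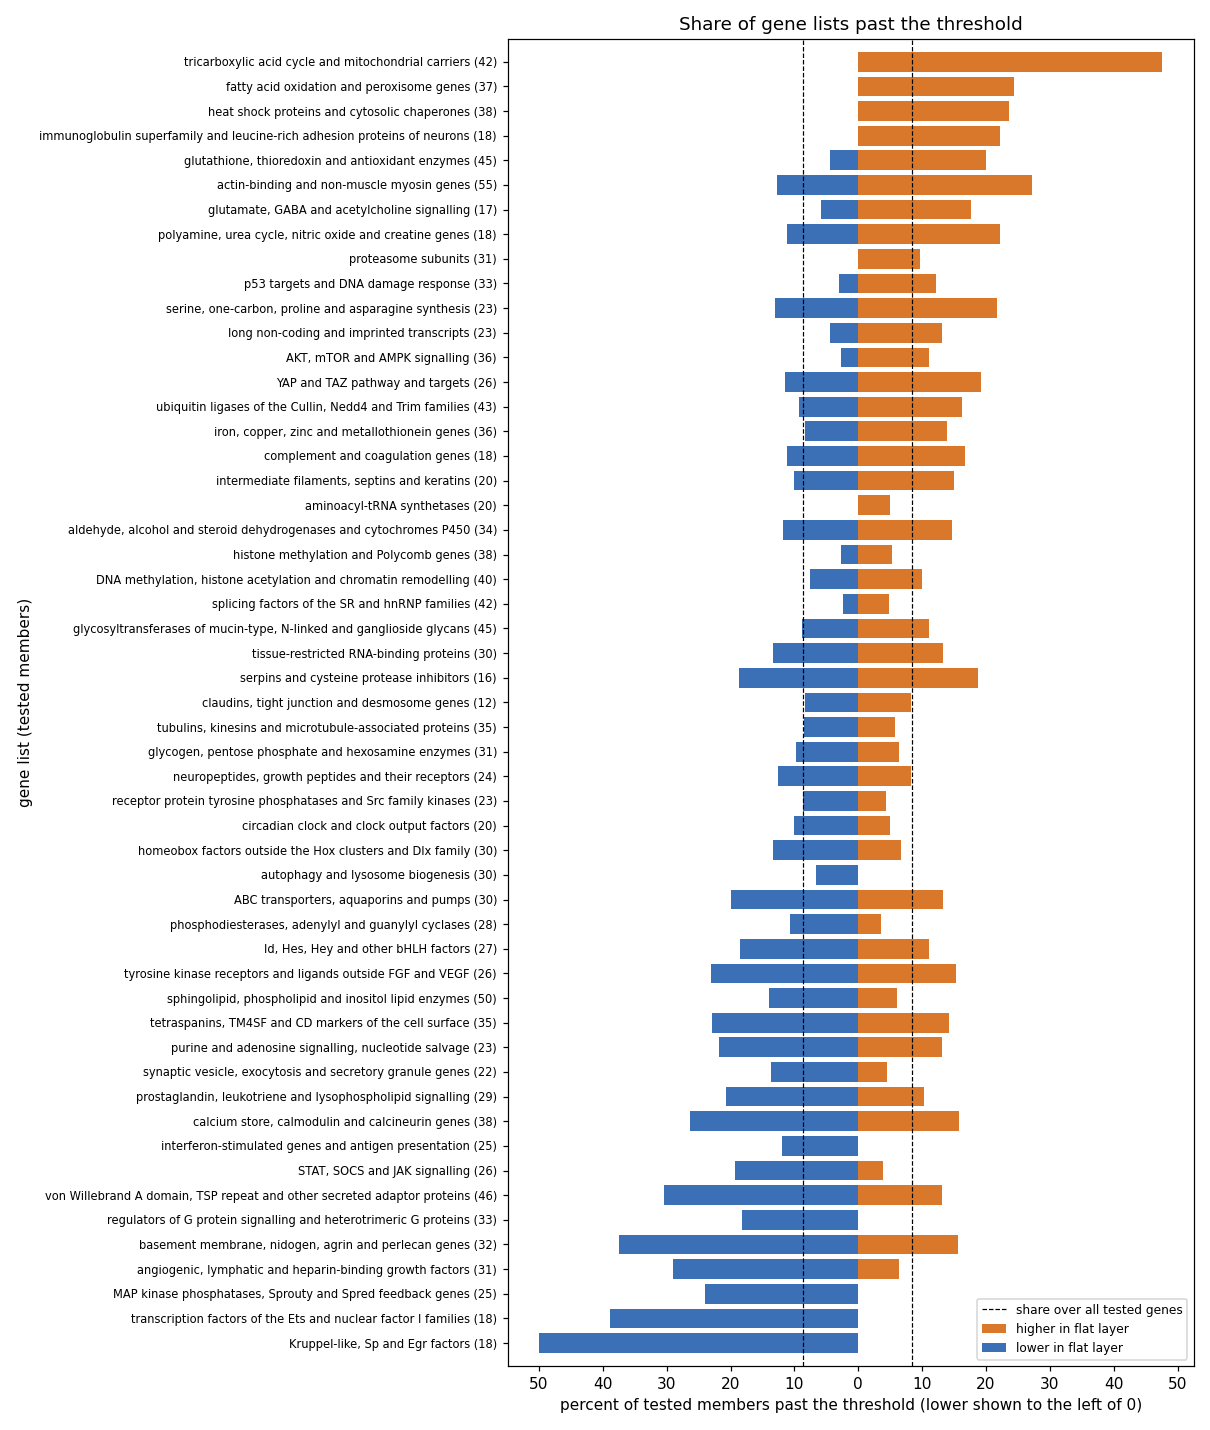
Percent of the tested members of the function lists reported here that rose (orange, right of 0) or fell (blue, left of 0) in the flat layer, with the number tested in parentheses. Dashed lines mark 8.39% and 8.64%, the shares of all tested genes. The tricarboxylic acid cycle list has the highest share of rises (20 of 42) and the list of Kruppel-like, Sp and Egr factors the highest share of falls (9 of 18).

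Hbegf, Btc and Tgfa, ligands of the epidermal growth factor receptor, fell in the flat layer, and Egf rose. These ligands are made as membrane proteins, are released by proteases and act on the same or neighbouring cells. Hbegf, heparin-binding EGF-like growth factor, had round signals of 3726, 4538 and 4452 and flat signals of 760, 852 and 997 (-2.25 ± 0.15, adjusted p = 2.4e-06). Btc, betacellulin, was at 413, 361 and 694 against 147, 50.8 and 66.2 (-2.21 ± 0.38). Tgfa, transforming growth factor alpha, was at 446, 413 and 370 against 208, 164 and 91.8 (-1.32 ± 0.27). With both the litter 1 round and the litter 3 flat array left out the adjusted p of Tgfa was 0.0641. All 3 ligands separated the layers without overlap, and with the muscle score as a covariate Hbegf alone of them remained past the threshold (adjusted p = 0.0145, against 0.265 for Btc and 0.443 for Tgfa). Their receptor Egfr was at 2283, 3561 and 2213 in the round and 2478, 2926 and 1764 in the flat layer, a difference of -0.16 ± 0.14 that did not pass (adjusted p = 0.494). Egf itself was low, at 50.5, 116 and 64.8 against 148, 187 and 266 (1.15 ± 0.33). That call was lost without the litter 1 or 3 round array, the litter 1 or 3 flat array or the litter 3 hypertrophic array (adjusted p 0.0561 to 0.184). In the list of 26 tested tyrosine kinase receptors and ligands, 4 rose and 6 fell (38.5% called), with a median of -0.16. Without the litter 2 round array these counts were 1 and 3, without the litter 3 round array the rises were 2, and without the litter 3 flat array the rises were 1.

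Kruppel-like and Egr factors include genes that respond quickly to growth factors and to mechanical or metabolic stimuli. Of 18 tested Kruppel-like, Sp and Egr factors, 9 fell and 0 rose (50% called, median -0.49), and 7 to 9 fell when any 1 round or flat array was left out. Without the replicate block 5 fell, and with the muscle score as a covariate 2 fell and 1 rose. Klf2, a Kruppel-like factor known for its induction by fluid flow in vessels, had signals of 5210, 5868 and 4857 in the round and 1590, 1418 and 738 in the flat layer (-2.13 ± 0.17). Egr1, an immediate early gene, was at 16477, 26605 and 21277 against 6100, 12014 and 7231 (-1.38 ± 0.14). Egr3, from the same family, was at 587, 1453 and 1100 against 314, 379 and 429 (-1.34 ± 0.22). No flat signal of these 3 genes reached the lowest round signal. Klf4, a factor of barrier tissues and stem cells, was at 9525, 8031 and 8579 against 5034, 2956 and 3003 (-1.29 ± 0.14). The other members that fell were Klf3, Klf6, Klf9, Klf10 and Sp1. In the summary of the list per array, the mean of its 18 members relative to all 9 arrays was 0.29, 0.51 and 0.46 in the round, -0.18, -0.18 and -0.26 in the flat and -0.27, -0.22 and -0.16 in the hypertrophic layer.

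Ets and nuclear factor I family members also fell. Of 18 tested members 7 fell and 0 rose (38.9% called, median -0.47), with 5 to 9 falling when 1 round or flat array was left out and 2 without the replicate block. Ets2, an Ets factor below the Ras and MAP kinase pathway, was at 5179, 5196 and 5143 in the round and 2417, 2163 and 2440 in the flat layer (-1.14 ± 0.12). That is a difference of 2.2-fold with almost no spread within the layers. Nfia, a nuclear factor I protein, was at 4875, 7303 and 6678 against 2851, 4173 and 3446 (-0.84 ± 0.13). With the muscle score as a covariate 1 member of the list fell.

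Feedback inhibitors of MAP kinase signalling fell in 6 of 25 tested members and rose in 0 (24.0% called, median -0.31). These genes are induced by the pathway that they then restrain. Dusp14, a dual-specificity phosphatase, was at 498, 1030 and 939 in the round and 232, 160 and 212 in the flat layer (-1.85 ± 0.29). Dusp1, the immediate early MAP kinase phosphatase, was at 5437, 11089 and 8550 against 3272, 4709 and 3313 (-1.11 ± 0.15). Errfi1, or Mig6, which inhibits the EGF receptor directly, was at 5668, 9385 and 9114 against 3267, 6635 and 4253, so that the litter 2 flat array lay above the litter 1 round array (-0.80 ± 0.13). In the litter pairs Errfi1 was lower in the flat layer each time, and without the replicate block its adjusted p was 0.102. Spry2 fell by 0.85 ± 0.18, a call lost without the litter 2 round array (adjusted p = 0.0511). Dusp6 and Spry4 were the other members that fell. Without the litter 2 round array the list had 3 members lower in place of 6, and without the replicate block 2. Under the muscle covariate 1 member fell, and Dusp14 was at -0.34 (adjusted p = 0.815) and Dusp1 at -0.38 (adjusted p = 0.533).

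The promoters of these feedback genes were searched for the cAMP response element TGACGTCA, a sequence that reads the same on both strands. Windows of 250 bases before to 50 bases after the gene start came from RefSeq (build GRCm38.p6), and 588 of 32851 such windows (1.79%) hold the motif. Of the 6 lower feedback genes 5 had a promoter in the table and 2 hold it, Errfi1 and Dusp1. Of 18 other tested list members with a promoter 1 holds it. The 250 bases before each start are shown for both genes because they carry the same element at different distances from the start, and the capitals mark it. In Errfi1 (chr4:150854820-150855069, plus strand) its first base lies at -51 and in Dusp1 (chr17:26508473-26508722, minus strand) at -143. These matches describe the letters in the window only.
Errfi1: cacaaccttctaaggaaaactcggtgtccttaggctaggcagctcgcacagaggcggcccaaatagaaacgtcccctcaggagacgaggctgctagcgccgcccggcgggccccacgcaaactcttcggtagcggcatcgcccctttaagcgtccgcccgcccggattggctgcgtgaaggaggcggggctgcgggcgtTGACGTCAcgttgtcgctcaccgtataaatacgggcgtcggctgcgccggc
Dusp1: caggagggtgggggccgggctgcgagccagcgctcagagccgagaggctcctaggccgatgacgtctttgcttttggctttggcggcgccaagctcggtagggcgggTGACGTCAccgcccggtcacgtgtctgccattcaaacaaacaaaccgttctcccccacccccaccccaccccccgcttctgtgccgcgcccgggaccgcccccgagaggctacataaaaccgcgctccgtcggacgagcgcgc

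**Figure D4:**
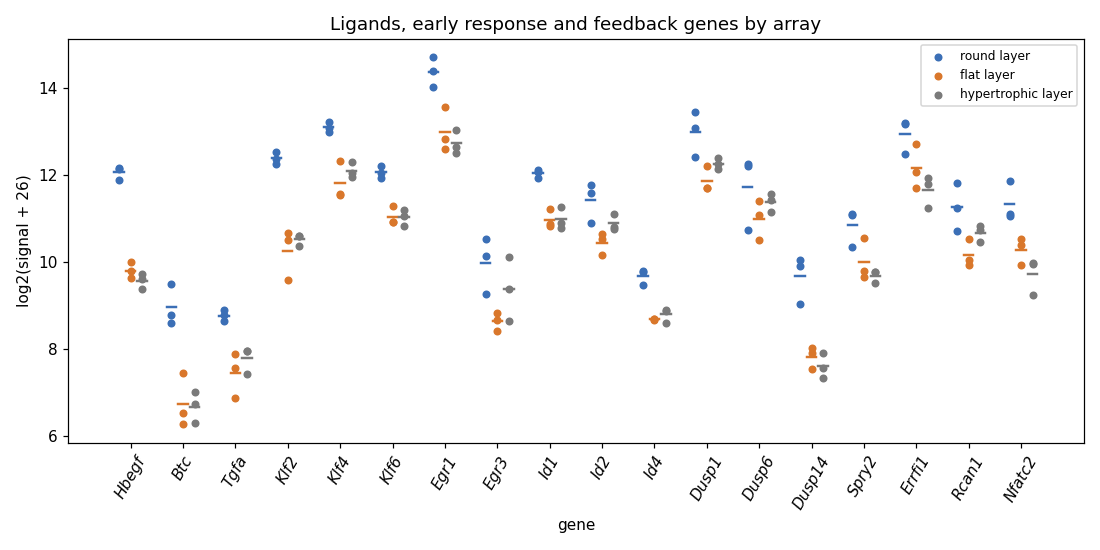
Log2(signal + 26) of EGF receptor ligands, response factors and feedback genes on each array, with the 3 round (blue), 3 flat (orange) and 3 hypertrophic (grey) arrays as points and layer means as bars. For Hbegf, Klf2, Id1 and Dusp14 the flat points lie below all round points, whereas for Errfi1, Dusp6 and Spry2 the layers overlap.

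Of 38 tested calcium signalling genes 6 rose and 10 fell (42.1% called). The calcineurin system, in which a calcium-activated phosphatase sends NFAT factors to the nucleus, has members on both sides. Rcan1, a calcineurin inhibitor that NFAT induces, was at 3583, 2383 and 1658 in the round and 1435, 1029 and 944 in the flat layer (-1.10 ± 0.15). Nfatc2, one of the NFAT factors, was at 3658, 2112 and 2173 against 1450, 942 and 1309 (-1.06 ± 0.16). Both genes remained lower with the muscle score as a covariate (adjusted p = 0.00792 and 0.0333). Itpr3, an inositol trisphosphate receptor that releases stored calcium, was at 1365, 1244 and 1377 against 581, 689 and 395 (-1.25 ± 0.20). In the opposite direction Rcan2, a relative of Rcan1, was at 608, 370 and 295 against 1188, 1305 and 954 (1.43 ± 0.19), and Stim1, the calcium store sensor, was at 542, 506 and 474 against 941, 1200 and 1152 (1.07 ± 0.16). These 2 genes were past the threshold without the replicate block, and neither was with the muscle covariate (adjusted p = 0.524 and 0.261). Casq2, a calcium-binding protein of striated muscle, also rose (1.59 ± 0.26), and became -0.27 with that covariate. The number of falls was 5 without the litter 3 round array and 6 without the litter 3 flat array. The number of rises was 3 without the litter 2 round array or the litter 1 or 3 flat array.

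G protein signalling regulators fell in 6 of 33 and rose in 0 (18.2% called, against 17.0% of all tested genes), with 2 or 3 falls when the litter 2 or 3 round array or any 1 flat array was left out. Rgs4, which turns off G protein signals, was at 409, 754 and 637 in the round and 185, 137 and 179 in the flat layer (-1.67 ± 0.26). Among 28 phosphodiesterases and cyclases, 1 rose and 3 fell (14.3% called). Npr2, the receptor for C-type natriuretic peptide, a hormone that promotes growth plate cartilage growth, was at 2383, 3616 and 3432 against 1338, 2085 and 1616 (-0.89 ± 0.16). Prkg2, the cyclic GMP-dependent kinase below it, was at 144, 59.4 and 103 against 192, 380 and 245 (1.23 ± 0.31). Under the muscle covariate Npr2 was at -0.14 (adjusted p = 0.868) and Prkg2 at 0.64 (adjusted p = 0.732). The Prkg2 call was lost without the litter 2 round or flat array (adjusted p = 0.103 and 0.108), which left no rise in that list. In the STAT and SOCS list, 1 rose and 5 fell of 26 (23.1% called), with 2 falls without the litter 2 or 3 round array or the litter 2 flat array, and 3 without the litter 1 or 3 flat array. The single rise was lost without the litter 1 flat array. Ghr, the growth hormone receptor, was at 4088, 4713 and 5025 against 2705, 2416 and 3278 (-0.72 ± 0.13), and the oncostatin M receptor gene Osmr had a difference of -0.87 ± 0.16. The Osmr signals overlapped between the layers, and without the replicate block its adjusted p was 0.285.

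Id genes, inhibitors of basic helix-loop-helix factors that are induced by bone morphogenetic proteins, were lower in the flat layer. Id1 had signals of 4286, 4398 and 3891 in the round and 2343, 1830 and 1778 in the flat layer (-1.08 ± 0.13). Id4 was at 679, 842 and 859 against 383, 385 and 380 (-0.99 ± 0.17). Neither gene overlapped between the layers, and with the muscle score as a covariate neither was past the threshold (adjusted p = 0.239 and 0.608). Id2 fell by 0.97 ± 0.21, a call lost without the litter 2 round array (adjusted p = 0.0562). Id3 and Hes1 were the other members that fell. Of the 27 tested members of this list 3 rose and 5 fell (29.6% called, against 17.0% of all tested genes), and without the litter 1 flat array the rises numbered 1. Without the replicate block 1 member rose and 3 fell, and with the muscle score as a covariate 0 rose and 0 fell. Among 30 homeobox factors outside the Hox clusters 2 rose and 4 fell (20.0% called). Irx5, an Iroquois factor, was at 73.7, 96.2 and 64.9 against 499, 538 and 250, with a hypertrophic mean of 1725 ± 356 (2.07 ± 0.20, adjusted p = 2.66e-05). Of the 6 called genes of that list Irx5 alone held in every fit that left out 1 round or flat array. Without the litter 2 round array the list had 1 rise and 1 fall, and without the litter 1 flat array it had 1 fall. Without the litter 2 flat array or any 1 hypertrophic array it had 1 rise and 2 falls, and without the litter 3 flat array it had 1 rise. Of 20 clock genes 1 rose and 2 fell (15.0% called). The clock repressor Cry2 was at 1538, 1481 and 1449 against 771, 662 and 740 (-1.02 ± 0.15), and Usp2, a clock output protease, rose by 1.09 ± 0.18. Nr1d1, another clock repressor, was at 188, 200 and 533 against 21.8, 53.2 and 236 (-1.59 ± 0.33). Its flat signal in litter 3 lay above the round signals of litters 1 and 2, and without the replicate block its adjusted p was 0.142.

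Secreted adaptor proteins changed in 20 of 46 tested members, 6 higher and 14 lower (43.5% called, median -0.27). Itih5, a protein that binds hyaluronan, was at 13656, 14481 and 14680 in the round and 3234, 2857 and 4896 in the flat layer (-1.99 ± 0.16). Tnfaip6, or TSG-6, which transfers such proteins to hyaluronan, was at 3670, 3048 and 3484 against 1029, 1005 and 980 (-1.73 ± 0.14). C1qtnf2, a C1q-related secreted protein, was at 2225, 2561 and 1644 against 563, 470 and 505 (-1.99 ± 0.22). These 3 genes remained lower with the muscle score as a covariate (adjusted p = 0.00792, 0.0384 and 0.0273). Thsd4, a protein of fibrillin microfibrils, fell by 1.77 ± 0.23. The 2 R-spondins that passed the filter on low signal, Rspo2 and Rspo3, went in opposite directions, the first at 564, 540 and 563 against 165, 193 and 428 (-1.12 ± 0.26) and the second at 113, 158 and 189 against 363, 935 and 620 (1.82 ± 0.23). R-spondins potentiate Wnt signalling through Lgr receptors such as the Lgr6 described above. Ccdc3, a secreted protein, was at 1688, 1357 and 1212 against 5856, 6043 and 2973 (1.73 ± 0.16), and Scube2, which helps release hedgehog ligands, was at 337, 422 and 369 against 1116, 1244 and 867 (1.44 ± 0.17).

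Basement membrane genes had the highest share of called members among the function lists, 5 higher and 12 lower of 32 (53.1%, median -0.29). Lamb3, a laminin chain of epithelia, was at 702, 363 and 253 in the round and 138, 85.9 and 65.6 in the flat layer (-1.85 ± 0.34). With both the litter 1 round and the litter 3 flat array left out its adjusted p was 0.0916. Fbln7, a fibulin, was at 3742, 3894 and 2887 against 1566, 1267 and 894 (-1.50 ± 0.16), and the collagen gene Col15a1 was at 5499, 2988 and 4539 against 1662, 1582 and 1221 (-1.50 ± 0.23). Col4a5, a chain of the collagen network of basement membranes, fell by 1.35 ± 0.21. The summed endothelial markers, given above, were also lower in the flat layer. Tendon, perichondrium and fibroblast markers fell in 5 of 13 and rose in 2 (53.8% called). Their sums were 179736 to 201948 in the round and 144120 to 183068 in the flat layer. The part of these tissues in the differences of the basement membrane genes was not tested. Omitting both the litter 1 round and the litter 3 flat sample gave 9 falls. Without the replicate block 2 members rose and 7 fell, and with the muscle score as a covariate 3 rose and 2 fell. Npnt, nephronectin, a ligand of integrin alpha 8 beta 1, went the other way at 453, 492 and 477 against 1601, 1455 and 1971 (1.76 ± 0.14, adjusted p = 1.06e-05). Smoc2, a calcium-binding matrix protein that also stands in the usual cartilage matrix list, rose by 1.27 ± 0.13. The number of rises was 2 or 3 without the litter 2 or 3 round array or the litter 1, 2 or 3 flat array.

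Angiogenic and lymphatic growth factors fell in 9 of 31 tested members and rose in 2 (35.5% called). Vegfc, the lymphatic growth factor, was at 2500, 1571 and 1072 in the round and 697, 612 and 438 in the flat layer (-1.46 ± 0.19). It remained lower with the muscle score as a covariate (adjusted p = 0.0039). Angptl1, an angiopoietin-like protein, was at 2825, 6462 and 5179 against 1128, 1376 and 1887 (-1.65 ± 0.17). Egfl6, which stands in this and the adaptor list, was at 2400, 2667 and 2216 against 1005, 852 and 955 (-1.35 ± 0.15). In all 3 genes the layers were separate. Mdk, the heparin-binding factor midkine, rose by 0.69 ± 0.13. Without the litter 1 flat array the list held 1 rise in place of 2.

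Glycan enzymes changed in both directions, including members of a single family. Polypeptide GalNAc transferases start mucin-type glycans on serine and threonine, and the isoenzymes differ in the proteins they act on. Galnt3 was at 19.4, 93.1 and 125 in the round and 655, 709 and 393 in the flat layer (2.67 ± 0.35), and Galnt6 at 20.5, 15.7 and 106 against 403, 285 and 154 (2.19 ± 0.42). Galnt5 rose by 0.90 ± 0.19. Galnt12, at 346, 362 and 329 against 58.8, 60.2 and 91.2, fell by 1.97 ± 0.30, and Galnt18 was at 1139, 1555 and 1532 against 539, 779 and 594 (-1.12 ± 0.15). Galnt16 also passed the threshold, with a difference of -0.80 ± 0.22. It was lost without the litter 1 or 2 round array or the litter 1 or 2 flat array (adjusted p 0.0723 to 0.14). St3gal5, which makes the ganglioside GM3, was at 313, 370 and 304 against 1041, 816 and 589 (1.21 ± 0.17). Over the whole list of 45 tested glycosyltransferases, 5 rose and 4 fell (20.0% called), or 2 of the falls without the litter 1 flat array. Uap1, which makes the activated sugar used for hyaluronan and other glycans, was at 3045, 2049 and 1637 against 1206, 909 and 875 (-1.12 ± 0.19).

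The sphingomyelin synthases differed in opposite directions. Sgms1, the Golgi enzyme, was at 2934, 1784 and 1916 in the round and 1247, 844 and 1410 in the flat layer (-0.90 ± 0.18). Sgms2, the plasma membrane enzyme, was at 2810, 1586 and 1681 against 8507, 6251 and 3317 (1.51 ± 0.20), and its hypertrophic mean was 13990 ± 1784. Neither gene overlapped between the layers. Agpat4, an acyltransferase of phospholipid synthesis, was at 9178, 3482 and 3207 against 2314, 1459 and 1303 (-1.50 ± 0.18). Of 50 tested lipid enzymes 3 rose and 7 fell (20.0% called), or 3 fell without the litter 2 round array and 4 without the litter 3 flat array.

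Enzymes and receptors of lipid mediators were called in 9 of 29 cases, 3 higher and 6 lower (31.0%). Ptgis, prostacyclin synthase, was at 10516, 6342 and 5997 in the round and 3245, 3428 and 2128 in the flat layer (-1.35 ± 0.16). Hpgd, which inactivates prostaglandins, was at 157, 333 and 360 against 587, 725 and 833, with a hypertrophic mean of 3392 ± 699 (1.32 ± 0.19). The receptor S1pr3 for sphingosine 1-phosphate was at 2000, 2164 and 1793 against 5677, 5350 and 4161 (1.33 ± 0.12), whereas its relative S1pr2 fell by 0.80 ± 0.15. Ptgis, Hpgd and S1pr3 remained past the threshold with the muscle score as a covariate (adjusted p = 0.00772, 0.0143 and 0.00635). Lpar4, a lysophosphatidic acid receptor, fell by 1.05 ± 0.20.

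Of 23 tested genes of nucleotide breakdown, adenosine signalling and salvage 3 rose and 5 fell (34.8% called). Entpd3, which removes phosphates from extracellular ATP, rose as given above. Enpp3, another ectoenzyme that breaks down nucleotides, fell by 0.78 ± 0.24, a call that was lost with any 1 array other than the litter 1 flat array left out (adjusted p 0.0532 to 0.153). Nt5e, or CD73, which makes adenosine from AMP, was at 2680, 3926 and 5527 in the round and 1473, 2264 and 1371 in the flat layer (-1.21 ± 0.20). Slc29a1, the equilibrative transporter that carries adenosine across the membrane, was at 1659, 2886 and 2881 against 888, 1235 and 1354 (-1.05 ± 0.16). Adk, the intracellular adenosine kinase, rose by 0.83 ± 0.12. Entpd3, with the muscle score as a covariate, remained past the threshold (adjusted p = 0.0361) and Nt5e, Slc29a1 and Adk were at adjusted p of 0.697, 0.493 and 0.0861. The falls in the list numbered 3 without the litter 2 or 3 round or flat array.

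Peptides and receptors best known from nerves were also measured. Penk, the enkephalin precursor, was at 7685, 9306 and 6554 in the round and 4740, 4562 and 2812 in the flat layer (-0.98 ± 0.14), with a hypertrophic mean of 1131 ± 105. Ramp1, the partner of the receptor for calcitonin gene-related peptide, was at 581, 505 and 769 against 1624, 1579 and 3280 (1.70 ± 0.15). Gfra1, a receptor for glial cell line-derived factor, was at 584, 701 and 569 against 119, 125 and 290 (-1.75 ± 0.25). Ramp1 remained past the threshold with the muscle score as a covariate (adjusted p = 0.0364), and Penk and Gfra1 did not (0.26 and 0.139). With Gal (described above) and Bdkrb2 they made up the 2 higher and 3 lower of 24 tested (20.8% called), or 5 lower without the litter 2 flat array. Bdkrb2, a bradykinin receptor, had a difference of -1.54 ± 0.38, lost without the litter 1 round or flat array (adjusted p = 0.073 and 0.0557). Chrna7, a nicotinic acetylcholine receptor subunit, was at 23.9, 78.4 and 53.2 against 248, 353 and 237 (2.02 ± 0.31). With the muscle covariate its adjusted p was 0.0815. In its list of 17 tested glutamate, GABA and acetylcholine genes 3 rose and 1 fell (23.5% called). The other rises were Chrna1 (1.39 ± 0.26) and Chrng (2.01 ± 0.49), at 0.68 and -0.76 with that covariate (adjusted p = 0.63 and 0.716). The Chrng call was lost without the litter 2 or 3 round or flat array. Adhesion proteins of neurons with leucine-rich repeats or immunoglobulin domains rose in 4 of 18 and fell in 0 (22.2% called). Lrrn3 (1.51 ± 0.24), Lrrn1 (1.36 ± 0.26), Flrt3 (1.21 ± 0.24) and Igsf3 (0.93 ± 0.17) were the 4, and the same number was called with any 1 array left out. Under the muscle covariate 0 of the 18 rose, and the 4 genes had adjusted p of 0.122, 0.901, 0.449 and 0.238, with Lrrn1 at a log2 difference of 0.19. The summed nerve and Schwann cell markers were 16796 to 18167 in the round and 10951 to 14065 in the flat layer. Of the 6 nerve markers tested 0 rose and 1 fell (Pmp22, -0.76 ± 0.16), with a median of 0.10, and their part in these differences was not tested.

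Of 22 vesicle and exocytosis genes 1 rose and 3 fell (18.2% called). Stxbp6, a regulator of vesicle fusion, was at 1956, 1963 and 1898 in the round and 614, 334 and 694 in the flat layer (-1.84 ± 0.20). Dnm1, a dynamin, was at 7787, 7464 and 8795 against 3087, 4081 and 2602 (-1.31 ± 0.17), and Sytl2, a granule tether, at 349, 347 and 419 against 964, 1107 and 1294 (1.53 ± 0.14). All 3 genes separated the layers. The rises of that list numbered 3 without the litter 1 round array and 2 without the litter 1 flat array.

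Cell surface proteins changed in both directions. Cd9, a tetraspanin, was at 7149, 8811 and 9919 in the round and 3405, 3222 and 2538 in the flat layer (-1.49 ± 0.15), and Tspan2, another, at 1568, 1051 and 952 against 477, 300 and 361 (-1.57 ± 0.16). Epcam, an epithelial adhesion protein, fell by 1.30 ± 0.17, and Cd24a, a glycoprotein of immature cells, rose by 1.24 ± 0.15. In that list 5 of 35 rose and 8 fell (37.1% called), and the rises ranged from 1 to 3 without the litter 2 or 3 round array, any 1 flat array or the litter 3 hypertrophic array.

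Amot, angiomotin, a junction protein that holds the growth regulator YAP out of the nucleus, was at 739, 602 and 879 in the round and 2545, 2506 and 2383 in the flat layer. Its difference of 1.72 ± 0.15 remained past the threshold with the muscle covariate (adjusted p = 0.0274), as did that of its relative Amotl1 (0.80 ± 0.13, adjusted p = 0.0361). Of 26 YAP pathway genes and targets 5 rose and 3 fell (30.8% called). Without the litter 3 round or flat array the counts were 2 and 1, without the litter 1 flat array they were 3 and 1, and without the litter 3 hypertrophic array the rises were 3. No member fell without the litter 2 round array. Capg, an actin filament capping protein, was at 2420, 1942 and 2004 against 1013, 613 and 538 (-1.57 ± 0.17), and Ezr, ezrin, which links actin to the membrane, fell by 0.94 ± 0.13. Of 55 actin-binding genes 15 rose and 7 fell (40.0% called). The largest rises were Pdlim3 (1.28 ± 0.21), Tpm1 (1.25 ± 0.14), Tln2 (1.09 ± 0.15) and Cfl2 (1.06 ± 0.13), all of them also found in muscle. With the muscle score as a covariate 0 of the 55 were higher and 1 was lower, and without the litter 1 flat array the falls numbered 4. Tubb2a, a beta tubulin, was at 11543, 8865 and 8928 against 3933, 2641 and 4117 (-1.47 ± 0.17), and remained lower with that covariate (adjusted p = 0.00452). Cgnl1, a junction protein, fell by 1.23 ± 0.16, and the claudin gene Cldn1 rose by 1.45 ± 0.25, the only called genes of 12 tight junction and desmosome genes.

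Of 36 tested genes that handle iron, copper, zinc or other metals 5 rose and 3 fell (22.2% called, median 0.04). Tfrc, the transferrin receptor that brings iron into cells, was at 2072, 2315 and 2298 in the round and 5411, 5686 and 5002 in the flat layer (1.26 ± 0.14). Slc40a1, ferroportin, which exports iron, was at 1788, 2277 and 2337 against 6520, 5980 and 4425 (1.38 ± 0.17). Cp, ceruloplasmin, the ferroxidase that loads iron onto transferrin, was at 279, 253 and 200 against 720, 1098 and 664, with a hypertrophic mean of 3262 ± 1115 (1.64 ± 0.19). Importer, exporter and oxidase all remained past the threshold with the muscle score as a covariate (adjusted p = 0.00672, 0.0195 and 0.0394). Hjv, a hepcidin regulator that skeletal muscle also expresses, rose by 1.48 ± 0.20 and had an adjusted p of 0.779 with that covariate. The summed macrophage markers were 16097 to 17553 in the round and 18593 to 21974 in the flat layer, with 2 of 15 higher, and the summed erythroid markers were 2833 to 3812 and 3593 to 3968. The members that fell were the mitochondrial iron carrier Slc25a28 (-0.58 ± 0.16), the zinc exporter Slc30a1 (-0.73 ± 0.19) and the metallothionein Mt2 (-0.71 ± 0.21). Slc25a28 was lost without the litter 3 round array or the litter 1 or 3 flat array (adjusted p 0.0514 to 0.139), and Slc30a1 without the litter 1 or 2 round array or the litter 1 flat array (0.0514 to 0.125). Mt2 was lost without the litter 1 or 2 round array, the litter 1 or 2 flat array or the litter 2 hypertrophic array (0.0588 to 0.174). The falls numbered 0 or 1 without the litter 1 or 2 round array or the litter 1 flat array.

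Aquaporin 1, Aqp1, a water channel, was at 15981, 15591 and 13677 in the round and 5932, 5704 and 3984 in the flat layer (-1.55 ± 0.12, adjusted p = 7.18e-06; 0.0232 with the muscle covariate). Of 30 pumps, aquaporins and ABC transporters 4 rose and 6 fell (33.3% called). Without the litter 2 round array the counts were 2 and 3, and 2 rose without the litter 3 round array or the litter 2 or 3 flat array. Hsd3b7, an enzyme that modifies oxysterols, was at 2501, 1742 and 1644 against 916, 812 and 676 (-1.25 ± 0.14). Ephx1, an epoxide hydrolase, fell by 1.21 ± 0.19, and Fmo1, a flavin monooxygenase, was at 708, 879 and 1061 against 2127, 2042 and 1887 (1.19 ± 0.17). Glutathione and antioxidant genes rose in 9 of 45 and fell in 2 (24.4% called). Gpx3, the secreted glutathione peroxidase, was at 1403, 914 and 828 against 2635, 2511 and 1846 (1.15 ± 0.14), and Gstm2, a glutathione transferase, rose by 1.21 ± 0.18. The rises numbered 4 without the litter 2 round array and 5 without the litter 2 or 3 flat array, and the falls 1 without the litter 2 round array or the litter 1 or 2 flat array.

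Genes of mitochondrial fuel use rose, and none of those tested fell past the threshold. Of 42 tested genes of the tricarboxylic acid cycle and mitochondrial carriers 20 rose (47.6% called, median 0.46), and of 37 fatty acid oxidation and peroxisome genes 9 rose (24.3% called, median 0.23). Idh3a, an isocitrate dehydrogenase subunit of the cycle, was at 1364, 1703 and 2683 in the round and 2949, 3725 and 7977 in the flat layer (1.26 ± 0.14). Dlat, a pyruvate dehydrogenase subunit, was at 895, 776 and 1157 against 1412, 1522 and 2815 (0.95 ± 0.16). Both genes were highest on the litter 3 flat array, which also had the highest muscle score (1.56). Ppara, a nuclear receptor that drives fatty acid oxidation, was at 41.8, 26.1 and 175 against 277, 240 and 624 (2.07 ± 0.34). The first list counted 11 rises without the litter 2 round array, 9 without the litter 3 round array, 8 without the litter 3 flat array and 5 without the replicate block. The fatty acid list counted 14 rises and 2 falls without the litter 1 round array, 5 rises without the litter 3 flat array and 3 without the block. With the muscle score as a covariate 0 genes of either list passed, against 392 of all 11313 tested genes. In that fit the median log2 difference was 0.21 for the first list and 0.25 for the fatty acid list. The part of muscle in these rises was not tested. The round layer had lower list means than the flat layer in every litter, with -0.35, -0.36 and -0.20 against -0.08, 0.05 and 0.52 relative to all 9 arrays for the first list.

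**Figure D5:**
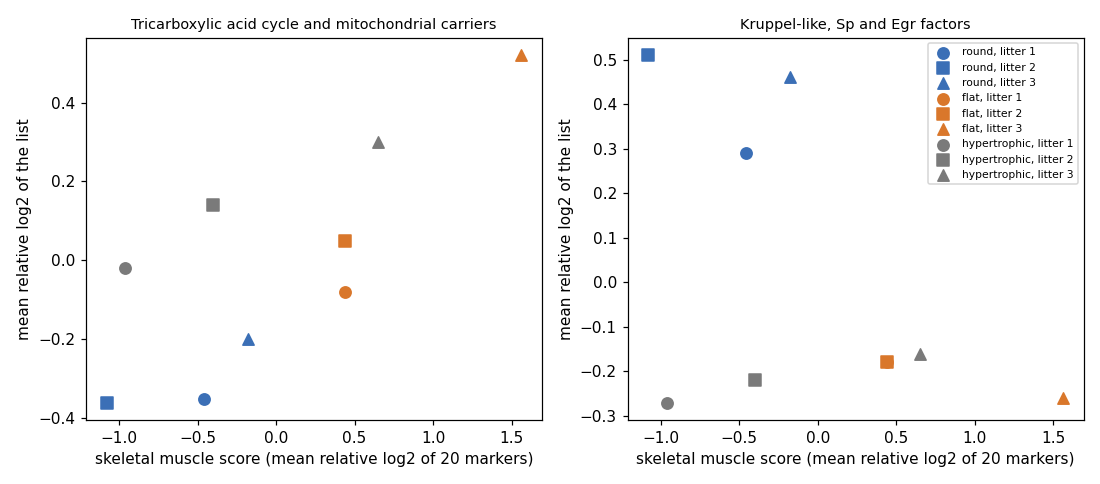
Mean relative log2 of the tricarboxylic acid cycle list (left) and of the Kruppel-like, Sp and Egr list (right) against the skeletal muscle score, for the 9 arrays coloured by layer with the marker shape giving the litter. Flat arrays of litters 1 and 2 coincide in the right panel, at 0.44 and -0.18, and in both panels every flat array lies to the right of every round array.

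Creatine synthesis and heat shock genes moved with the same arrays. Gatm and Gamt, the 2 enzymes of creatine synthesis, rose by 1.62 ± 0.18 and 1.03 ± 0.20, and Ckmt2, a creatine kinase of striated muscle mitochondria, by 1.5 ± 0.29. With the muscle covariate they were at 1.17 (adjusted p = 0.16), 0.58 (0.579) and -0.27 (0.814), and without the replicate block their adjusted p were 0.0666, 0.135 and 0.111. Gatm was at 406, 558 and 1109 in the round and 1420, 1351 and 4115 in the flat layer, highest on the litter 3 flat array. Small heat shock proteins led a list with 9 rises and 0 falls among 38 (23.7% called). Hspb1 was at 4750, 4582 and 8025 against 11271, 10321 and 21224 (1.27 ± 0.13) and Hspb7 at 543, 504 and 616 against 1312, 1186 and 2766 (1.52 ± 0.19). Without the litter 3 round or flat array the rises in that list numbered 5, and with the muscle score as a covariate 0 rose and 2 fell. Rragd, a small GTPase of the mTOR pathway, rose by 1.5 ± 0.21 and Smyd1, a muscle methyltransferase, by 1.85 ± 0.26, and neither was past the threshold with that covariate (adjusted p = 0.518 and 0.651).

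Several further genes from other lists separated the layers. Chd7, a chromatin remodeller mutated in CHARGE syndrome, was at 155, 183 and 137 in the round and 1083, 526 and 602 in the flat layer (1.99 ± 0.25). The nuclear RNA Neat1 was at 2790, 3448 and 2746 against 1792, 1768 and 941 (-1.03 ± 0.17). Trim47, a ubiquitin ligase, was at 3975, 2860 and 2673 against 1229, 1008 and 789 (-1.63 ± 0.14), and remained lower with the muscle score as a covariate (adjusted p = 0.00757). Phlda1, a growth factor-induced gene placed in the p53 list, was at 4981, 5771 and 3764 against 1930, 1276 and 1193 (-1.72 ± 0.15). Ptprd, a receptor tyrosine phosphatase, was at 2819, 2163 and 2153 against 6321, 5272 and 3722 (1.07 ± 0.13). The polycomb protein gene Cbx6 fell by 0.89 ± 0.13, and Serpinb1a, a protease inhibitor of granulocytes, rose by 1.21 ± 0.17.

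Housekeeping lists had few called members. Of 31 proteasome subunits 3 rose (9.68% called), of 20 aminoacyl-tRNA synthetases 1 rose (5.0%), and of 30 autophagy genes 2 fell (6.67%). Splicing factors were called in 3 of 42 (7.14%) and histone methylation genes in 3 of 38 (7.89%). These shares lie below the 17.0% of all tested genes, and the medians of the 5 lists ranged from -0.11 to 0.18. The proteasome rises numbered 7 without the litter 1 round array, 1 without the litter 2 or 3 round array or the litter 1 flat array, and 0 without the litter 3 flat array. With any 1 of the 9 arrays left out, 0 to 2 synthetases, 1 or 2 autophagy genes, 0 to 5 splicing factors and 2 to 5 histone methylation genes were called.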

How the data were processed

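Gene expression was measured on 9 arrays, 3 layers of 3 litters each. Per the labels' protocols and the submitters' processing notes, the authors deposited MAS5 signal intensity values computed with Affymetrix Expression Console, scaled per array; its version is not given in the sources used here. On the deposited table the trimmed mean is 500.003 with 2% cut at each end. Median intensity was 123 to 152 per array, and 9 arrays limit the precision.

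Of 45101 probe sets, 64 controls were left out. By GEO's platform annotation 34945 of the others name 1 gene, 932 several and 9160 none. Each of 18193 genes was represented by its brightest such probe set over the 9 arrays. Values were log2(signal + 26), and 6880 genes under a mean of 7.212 were not tested. limma 3.58.1 (R 4.3.3) fitted layer and litter over the 9 arrays with a mean-variance trend and Benjamini-Hochberg adjustment over 11313 genes. All adjusted p are limma's.

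Replicate numbers were taken as litters: each sample came from 1 litter, but the labels do not say that equal numbers share one. Deviations from layer means correlated at 0.167 to 0.517 in 9 same-number pairs and -0.434 to 0.0815 in the 18 others. No array pair was identical.

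The gene groups and lists were chosen with earlier results of these data known. Among threshold-passing genes outside marker lists that went the same way in 3 litters, the text names the 20 largest rises and 20 largest falls. It also names the 5 highest moderated t values each way and some of the label markers. The rule picked up to 4 rises and 4 falls per function list as well, and only part of these are named. Which of them to name was decided with their values known. Other genes, named to complete a group, were chosen after their values were seen. Results of 2 function lists, counted in the totals over lists, are not reported here.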

Additional observations from a re-analysis of the deposited data

How the results depend on the processing

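The number of genes that differed was 1926 in the reported fit. Without the replicate block it was 935, with 405 higher, 530 lower and 261 higher by at least 2-fold. With the skeletal muscle score as a covariate it was 392, with 198 higher and 194 lower, and the same 198 and 194 were at least 2-fold. The mean of all single-gene probe sets gave 644 lower genes. Leaving out 1 array at a time gave 1225 to 1956 genes, 625 to 990 higher, 600 to 966 lower, and 375 to 466 higher and 290 to 328 lower by at least 2-fold. Without round replicate 2 the counts were 1225, 625 and 600. The cause of these shifts was not tested.

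Of the 338 genes picked by rule, 215 remained past the threshold without the replicate block and 84 with the muscle covariate. With both the litter 1 round and the litter 3 flat sample omitted 254 remained, and with 1 array left out 250 to 319. Other settings kept 275 to 337 of 338, and the mean of probe sets 241 of 316.

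Some differences changed sign. With the mean of probe sets Mob1a was at 0.07 and Hnrnpa2b1 at -0.1. With the muscle covariate the log2 differences were -0.75 for Trdn, 0.08 for H2-D1, 0.53 for Rgs11, -0.16 for Tuba4a, -1.17 for Des, -0.76 for Chrng, -0.25 for Pdk4, -0.12 for Asns, -0.27 for Ckmt2, 0.02 for Pygl, -0.33 for Gys1 and -0.16 for Farsb. They were -0.09 for Rbfox1, -0.4 for Rbm20, 0.0 for Ptprm, -0.7 for Camk2b, -0.27 for Casq2, -0.09 for Adh1, -0.45 for Hspb3, -0.27 for Klhl30, -0.06 for Lama2 and -0.81 for Frem2. The cause was not tested. Signals near the pseudocount of 26 give understated folds.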
